A study of Cicer arietinum with 8 samples.

Results

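In the roots of chickpea (Cicer arietinum), 51 loci with a gene name differed at least 2-fold between salinity stress and control in the salinity sensitive genotype while staying nearly level in the salinity tolerant one. Of these, 19 were higher and 32 were lower under stress in the sensitive genotype, out of 27876 named loci among 30692 in all. The loci were selected on their FPKM, that is, fragments assigned to a locus scaled to transcript length and to the number of mapped fragments in the library. A locus was taken when its values in the sensitive genotype were at least 2-fold apart with the higher at 5 FPKM or more, and when its stressed value in the tolerant genotype was between 0.8 and 1/0.8 times its control value. The sizes of these responses are therefore a description of the choice and carry no test.

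The plants belonged to 4 groups, with 2 libraries in each and 8 in all. SS-C and SS-S were control and stressed roots of ICCV2 (sensitive, SS), and ST-C and ST-S were control and stressed roots of JG62 (tolerant, ST). Stressed plants received 80 mM NaCl on alternating days for 6 days from an age of 12 days, control plants received water without the salt, and roots were taken at 18 days, although the design text speaks of seedlings 17 days old. Each group is represented by 1 pooled FPKM per locus, the authors' value over both libraries. No SD, n or p-value therefore accompanies any value below, and the pooled values allow no replicate check. The study itself called differentially expressed genes with the program Cuffdiff, by p-value and fold change. Its supplementary lists, which go by locus number, were not used here. Whether the selected loci are among the study's calls was hence not looked up. Each genotype is 1 line, so that what is particular to the lines cannot be told apart from what goes with sensitivity. Whole roots were sequenced, and fewer cells of a type and less RNA per cell cannot be told apart.

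Salt in the soil holds back water from the root and brings in sodium and chloride ions. Roots are known to respond with calcium and abscisic acid signalling, with ion transporters that exclude or store sodium, and with solutes and enzymes that protect the cells. Genes that move in a sensitive line alone can belong to such defences, to growth or to injury, and an FPKM change does not separate these. The 51 loci carry names of the form Ca_ and a number. Neither the text and supplementary tables of the study nor the RefSeq table gives any of these names a role. That search went by name, whereas the study's supplementary lists go by locus number and the RefSeq table holds none of the names. It hence does not show that no role is known. The loci are described by name, level and pattern, and no marker of root tissue was checked.

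Over the 18918 loci with at least 1 FPKM in every group, the median log2 ratio was -0.02 for SS-S over SS-C, 0.04 for ST-S over ST-C, -0.01 for ST-C over SS-C and 0.04 for ST-S over SS-S. The columns thus lay close together in scale. Depth could not be read from the pooled values.

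Of 14191 named loci with 5 FPKM or more in an SS group, 74 (0.521%) were raised at least 2-fold and 122 (0.86%) were lowered. The 19 raised and 32 lowered genes described here are the part of these with the level ST ratio, which is 25.7% of the raised and 26.2% of the lowered loci. Among all 14191 loci, 78.4% had such an ST ratio. Most of the other SS-raised loci, 42, were also raised beyond the window in ST, 10 were lowered there and 3 were listed at 0 in an ST group. Of the other SS-lowered loci, 51 were also lowered in ST, 32 went the opposite way and 7 were listed at 0.

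**Figure D1:**
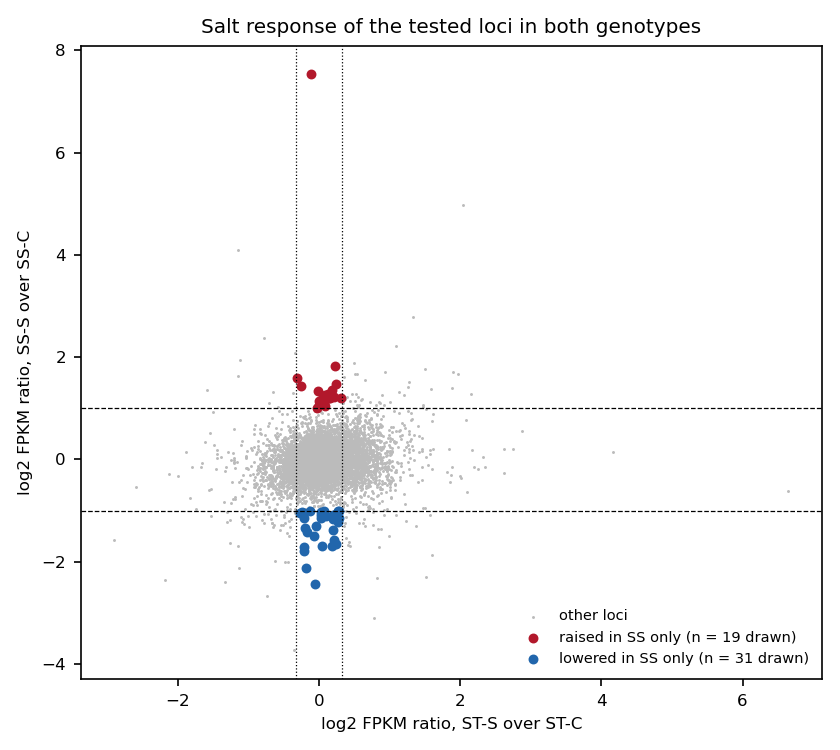
Each point is a named locus with 5 FPKM or more in an SS group, with the log2 FPKM ratio of stress to control in ST on the x axis and in SS on the y axis. Dashed lines mark 2-fold in SS and dotted lines the ST window from 0.8 to 1/0.8. The 19 raised and 31 of the 32 lowered genes stand out in the central strip, 1 raised gene far above the rest at 7.53, and the other 14117 loci form the grey cloud (24 loci listed at 0 in a group are not drawn).

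Most of the 51 responses were modest. The SS fold lay under 2.5 in 12 of the 19 raised and in 19 of the 32 lowered genes. It reached 3 or more in 3 raised and 7 lowered genes, beside 1 lowered gene listed at 0 under stress. The median fold was 2.33 among the raised genes and 2.22 among the 31 lowered genes with a fold.

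The raised genes were weakly expressed in SS control roots, with a median of 5.05 FPKM and a range from 0.237 to 98.1. Under stress their median was 12.2 FPKM, from 5.20 to 246.9. In ST their medians were 9.74 FPKM in control and 9.13 in stressed roots. ST-C was above SS-C at each of the 19 genes, and ST-S was below SS-S at 17 of them. The ST values thus mostly lay between the SS values: both ST values did so at 17 genes.

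The ST level, taken as the geometric mean of ST-C and ST-S, was nearer to the unstressed SS level at 10 raised genes, nearer to the stressed SS level at 8 and above both at 1. Which side held more of the raised genes turned with the limits: the share nearer to or above SS-S was 47.4% here, 53.8% with a minimum of 10 FPKM and 59.6% with a minimum of 1. Nearness was judged on the log2(FPKM + 1) scale as the place of the ST level in the span from SS-C (0) to SS-S (1). The rule fixed the SS values and the ST ratio but not the ST level itself. Since the SS columns enter both, these places are again a description.

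Among the 10 raised genes whose ST level was nearer to SS-C, Ca_17198 was extreme. It had 0.237 FPKM in SS-C, 43.9 in SS-S, 1.36 in ST-C and 1.26 in ST-S, a 185-fold difference in SS. It was the only raised gene at 4-fold or more. The fold is set against an SS-C value close to 0, whereas its SS-S value was 34.9 times the ST-S value. Its ST-C value was also 5.74 times SS-C, so its ST level was nearer to SS-C without being close to it.

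Ca_18084 was the most abundant raised gene. Its FPKM was 98.1 in SS-C, 246.9 in SS-S, 113.97 in ST-C and 112.2 in ST-S. ST-C was 1.16 times SS-C, and only stressed SS roots stood apart, at 2.2 times ST-S. Its SS-S value ranked above the higher SS value of 93.6% of the tested loci.

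A similar shape at lower levels was seen in Ca_22525, with 7.01 FPKM in SS-C, 16.8 in SS-S, 8.17 in ST-C and 8.69 in ST-S. Ca_20437 had 4.57 FPKM in SS-C, 10.5 in SS-S, 5.03 in ST-C and 6.23 in ST-S. In both, SS-S was the only high group. The ST ratio of Ca_20437, 1.24, was the closest to the upper edge of the window among the raised genes.

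Ca_25353 and Ca_11903 were scarce genes of this kind. Ca_25353 had 1.72 FPKM in SS-C, 6.14 in SS-S, 2.33 in ST-C and 2.71 in ST-S, a 3.57-fold difference in SS. Ca_11903 had 1.92 FPKM in SS-C, 5.20 in SS-S, 2.63 in ST-C and 2.2 in ST-S. Neither would count with a minimum of 10 FPKM. Ca_15147 (2.84, 6.49, 3.41 and 3.75 FPKM in SS-C, SS-S, ST-C and ST-S) and Ca_18313 (2.59, 5.45, 3.38 and 3.37 FPKM in the same order) were as scarce and passed the 2-fold limit by less, at 2.29-fold and 2.1-fold.

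In the last 2 genes with the ST level nearer to SS-C it lay almost midway. Ca_05651 had 7.07 FPKM in SS-C, 16.3 in SS-S, 9.81 in ST-C and 10.96 in ST-S. Ca_25213 had 6.22 FPKM in SS-C, 18.9 in SS-S, 11.3 in ST-C and 9.08 in ST-S, a 3.04-fold difference in SS with a slightly lower value under stress in ST. Its ST ratio of 0.801 was at the very edge of the window, and Ca_25213 leaves the set when the columns are rescaled.

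In the other 9 raised genes the ST level was nearer to SS-S or above it. SS control roots were the lowest group here, as they were at all 19 raised genes. Ca_12587 had 3.09 FPKM in SS-C, 8.66 in SS-S, 7.71 in ST-C and 9.13 in ST-S. Ca_25422 had 3.01 FPKM in SS-C, 7.74 in SS-S, 7.82 in ST-C and 8.89 in ST-S, the only raised gene with both ST values above both SS values. Ca_09233 had 4.83 FPKM in SS-C and 10.6 in SS-S, against 10.03 in ST-C and 10.5 in ST-S. At these 3 genes ST-C was between 2.08 and 2.60 times SS-C.

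Ca_17578 had 5.79 FPKM in SS-C, 11.99 in SS-S, 10.3 in ST-C and 10.9 in ST-S. Ca_01059 had 13.2 FPKM in SS-C, 26.5 in SS-S, 23.9 in ST-C and 23.3 in ST-S, and with 2.01-fold it was the raised gene nearest to the limit. Ca_18401 had 5.05 FPKM in SS-C, 12.2 in SS-S, 9.74 in ST-C and 10.6 in ST-S. In each of these SS-S was at most 1.15 times ST-S, so that the genotypes were apart in control roots and close under stress.

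Ca_04507 lay between the shapes, with 9.47 FPKM in SS-C, 20.8 in SS-S, 14.89 in ST-C and 14.93 in ST-S. Its ST values were almost equal.

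The remaining raised loci form the only pair with consecutive locus numbers. XLOC_011229, whose FPKM belongs to Ca_04288 and Ca_04289 together, had 6.24 FPKM in SS-C, 14.6 in SS-S, 9.90 in ST-C and 11.5 in ST-S. XLOC_011230 (Ca_04290) had 21.4 FPKM in SS-C, 48.6 in SS-S, 37.4 in ST-C and 38.5 in ST-S. Their SS folds were 2.33 and 2.27, and their ST levels lay at 0.62 and 0.70 of the SS span. XLOC_011229 is the only one of the 51 loci with more than 1 gene name. The next locus numbers on either side, XLOC_011228 (6.80 and 6.62 FPKM in SS-C and SS-S) and XLOC_011231 (5.26 and 5.75), differed little in SS.

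**Figure D2:**
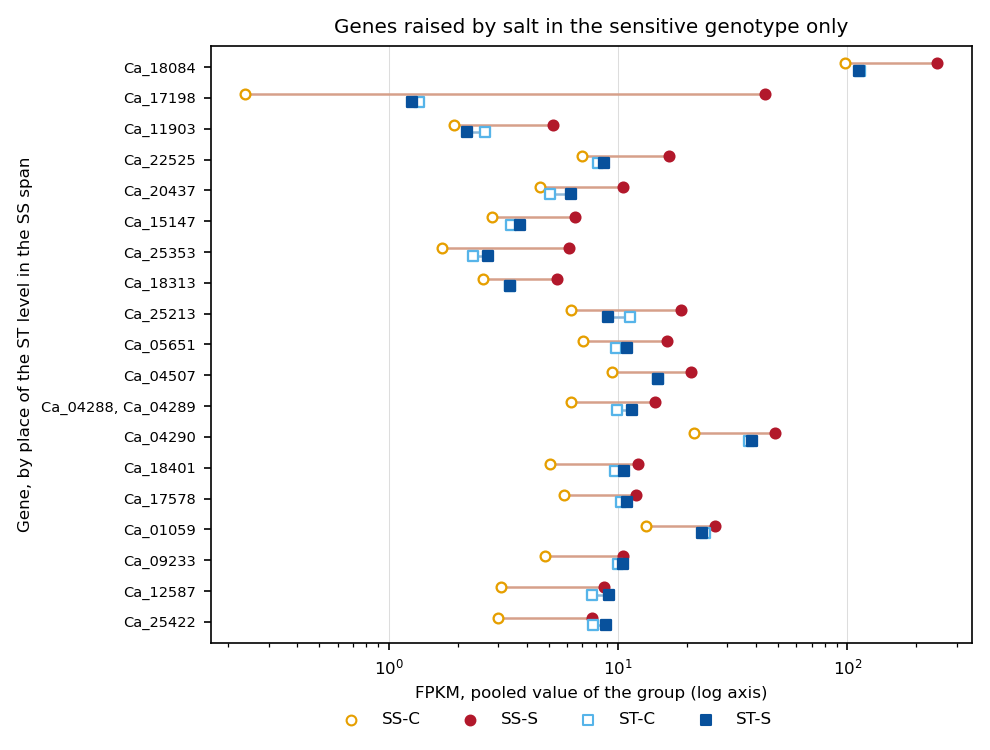
The 4 pooled FPKM values of each of the 19 raised genes, on a log axis, with SS as circles and ST as squares, open for control and filled for stress. Genes are ordered from those whose ST level is nearest to SS-C (top, Ca_18084) to those whose ST level is at or beyond SS-S (bottom, Ca_25422). At 17 genes both squares lie between the circles.

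The lowered genes were more abundant than the raised ones in the SS column where they were highest, with a median of 16.7 FPKM in SS-C and a range from 5.17 to 89.7. In SS-S their median was 5.80 FPKM, from a listed 0 to 40.2. Their ST medians were 12.8 FPKM in control and 13.1 in stressed roots. In contrast to the raised genes, the ST level of the lowered genes fell on every side of the SS values: above SS-C at 10 genes, between the SS values but nearer to SS-C at 6, between and nearer to SS-S at 8, and below SS-S at 8. It was inside the SS span at 14 of 32 lowered genes (43.8%) and at 18 of 19 raised genes (94.7%). Since genes are not replicates, this difference in shares was not tested.

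In the 10 lowered genes whose ST level was above SS-C, ST roots had more transcript than SS roots in control. That the gap was wider under stress is fixed by the choice of a lowered SS with a level ST, so its sizes are a description. ST-C was from 1.11 to 1.75 times SS-C, and ST-S was from 2.28 to 6.28 times SS-S. Both ST values exceeded both SS values at 9 of these genes.

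The widest gap was in Ca_25760, with 53.1 FPKM in SS-C, 16.4 in SS-S, 91.1 in ST-C and 103.1 in ST-S. Stressed ST roots thus had 6.28 times the value of stressed SS roots. Ca_22597 had 24.0 FPKM in SS-C, 7.44 in SS-S, 37.3 in ST-C and 38.6 in ST-S, a ratio of 5.18 under stress. Ca_22597 stayed in the set under every alternative setting, as did Ca_02358 and Ca_17198 alone among the 51.

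Ca_19779 was a scarcer gene of this shape, with 6.40 FPKM in SS-C, 1.96 in SS-S, 11.2 in ST-C and 9.65 in ST-S. Ca_15029 had 8.75 FPKM in SS-C, 3.26 in SS-S, 14.4 in ST-C and 12.8 in ST-S. Ca_18561 had 8.74 FPKM in SS-C, 4.29 in SS-S, 14.3 in ST-C and 14.5 in ST-S. In all 3 the control values of the genotypes were between 1.63 and 1.75 times apart and the stressed values between 3.38 and 4.93 times.

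Among the more abundant genes, Ca_03133 had 55.3 FPKM in SS-C, 24.7 in SS-S, 72.1 in ST-C and 82.6 in ST-S. Ca_16636 had 53.9 FPKM in SS-C, 26.7 in SS-S, 66.4 in ST-C and 60.8 in ST-S, but passed the 2-fold limit narrowly, at 2.02. Ca_03140 had 12.4 FPKM in SS-C, 5.28 in SS-S, 18.9 in ST-C and 22.7 in ST-S. SS-S was the lowest group in each of them.

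In Ca_21338 and Ca_25952 control roots of the genotypes were close and only stressed SS roots were low. Ca_21338 had 16.3 FPKM in SS-C, 3.72 in SS-S, 18.01 in ST-C and 15.8 in ST-S, a 4.37-fold difference in SS. Ca_25952 had 6.47 FPKM in SS-C, 2.29 in SS-S, 7.64 in ST-C and 7.29 in ST-S. Their ST-C values were 1.11 and 1.18 times SS-C.

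Of the 6 lowered genes with an ST level between the SS values but nearer to control, Ca_26720 differed most. It had 32.2 FPKM in SS-C and was listed at 0 in SS-S, whereas ST roots had 6.37 FPKM in control and 7.71 under stress. No fold is given for this gene, the only one of the 51 listed at 0. SS-C was 5.06 times ST-C, so the genotypes were also apart without salt, in the opposite direction to that under stress.

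The other 5 genes of this kind showed smaller differences. Ca_00136 had 38.6 FPKM in SS-C, 19.2 in SS-S, 29.8 in ST-C and 36.1 in ST-S. Ca_23930 had 14 FPKM in SS-C, 6.31 in SS-S, 9.86 in ST-C and 11.6 in ST-S. In both, ST was slightly higher under stress, by ratios of 1.21 and 1.18. Ca_06257, Ca_16226 and Ca_02675 were scarce, with 7.73, 5.17 and 5.25 FPKM in SS-C and 2.59, 2.09 and 2.55 in SS-S. Their ST-C values were 4.56, 4.46 and 3.98 FPKM and their ST-S values 5.29, 4.33 and 4.73.

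In the 8 lowered genes with an ST level between the SS values and nearer to SS-S, control SS roots stood above the other 3 groups. SS-C was also the highest group at the 6 lowered genes nearer to SS-C and at the 8 below SS-S. With a level ST ratio, this nearly follows from sorting the genes by an ST level below SS-C. The lead of SS-C was small at some of the 6, as at Ca_00136 (38.6 FPKM against 36.1 in ST-S) and Ca_16226 (5.17 FPKM against 4.46 in ST-C). Ca_02358 had 74.0 FPKM in SS-C, 13.6 in SS-S, 18.7 in ST-C and 17.9 in ST-S. With 5.44-fold it had the largest fold among the lowered genes, and its SS-C value was 3.95 times ST-C.

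The most abundant lowered genes shared this shape. Ca_04881 had 89.7 FPKM in SS-C, 35.5 in SS-S, 40.2 in ST-C and 34.8 in ST-S. Ca_12610 had 82.7 FPKM in SS-C, 40.2 in SS-S, 47.1 in ST-C and 39.2 in ST-S. Ca_01122 had 74.4 FPKM in SS-C, 33.8 in SS-S, 42.5 in ST-C and 36.5 in ST-S. In all 3 ST-S was between 0.976 and 1.08 times SS-S. Their ST ratios were from 0.832 to 0.866, so the ST value too was slightly lower under stress.

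Ca_25730 had 42.4 FPKM in SS-C, 21.1 in SS-S, 27.1 in ST-C and 28.4 in ST-S. Ca_21212 had 22 FPKM in SS-C, 6.98 in SS-S, 11.3 in ST-C and 13.4 in ST-S, and its ST level was almost midway at 0.52 of the span. Ca_24715 (17.2, 8.43, 10.5 and 8.93 FPKM in SS-C, SS-S, ST-C and ST-S) and Ca_06424 (6.01, 2.72, 3.02 and 3.06 FPKM in the same order) again had SS-C as the only high group.

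In the last 8 lowered genes the ST level was below SS-S. Both ST values were below both SS values at 6 of them, and at Ca_02605 and Ca_27296 1 ST value lay slightly above SS-S. SS-C was from 2.24 to 4.96 times ST-C, whereas SS-S was from 0.976 to 2.05 times ST-S.

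Ca_11474 was the farthest from the SS values, with 5.43 FPKM in SS-C, 2.57 in SS-S, 1.09 in ST-C and 1.26 in ST-S. Ca_15529 had 28.97 FPKM in SS-C, 13.2 in SS-S, 9.02 in ST-C and 10.9 in ST-S. Ca_11637 had 11.1 FPKM in SS-C, 4.27 in SS-S, 3.28 in ST-C and 3.74 in ST-S. Both ST values were below both SS values in each of these 3 genes.

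Ca_18913 had 43.1 FPKM in SS-C, 20.0 in SS-S, 17.2 in ST-C and 18.4 in ST-S. Ca_02605 had 42.2 FPKM in SS-C, 21.0 in SS-S, 17.9 in ST-C and 21.6 in ST-S. Ca_27296 had 12.2 FPKM in SS-C, 3.54 in SS-S, 3.72 in ST-C and 3.21 in ST-S. Here the stressed SS value practically met the ST values, with SS-S between 0.976 and 1.1 times ST-S. The same held at lower levels for Ca_22495 (9.19, 4.31, 4.11 and 4.20 FPKM in SS-C, SS-S, ST-C and ST-S) and Ca_06386 (5.4, 2.57, 2.34 and 2.46 FPKM in that order).

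**Figure D3:**
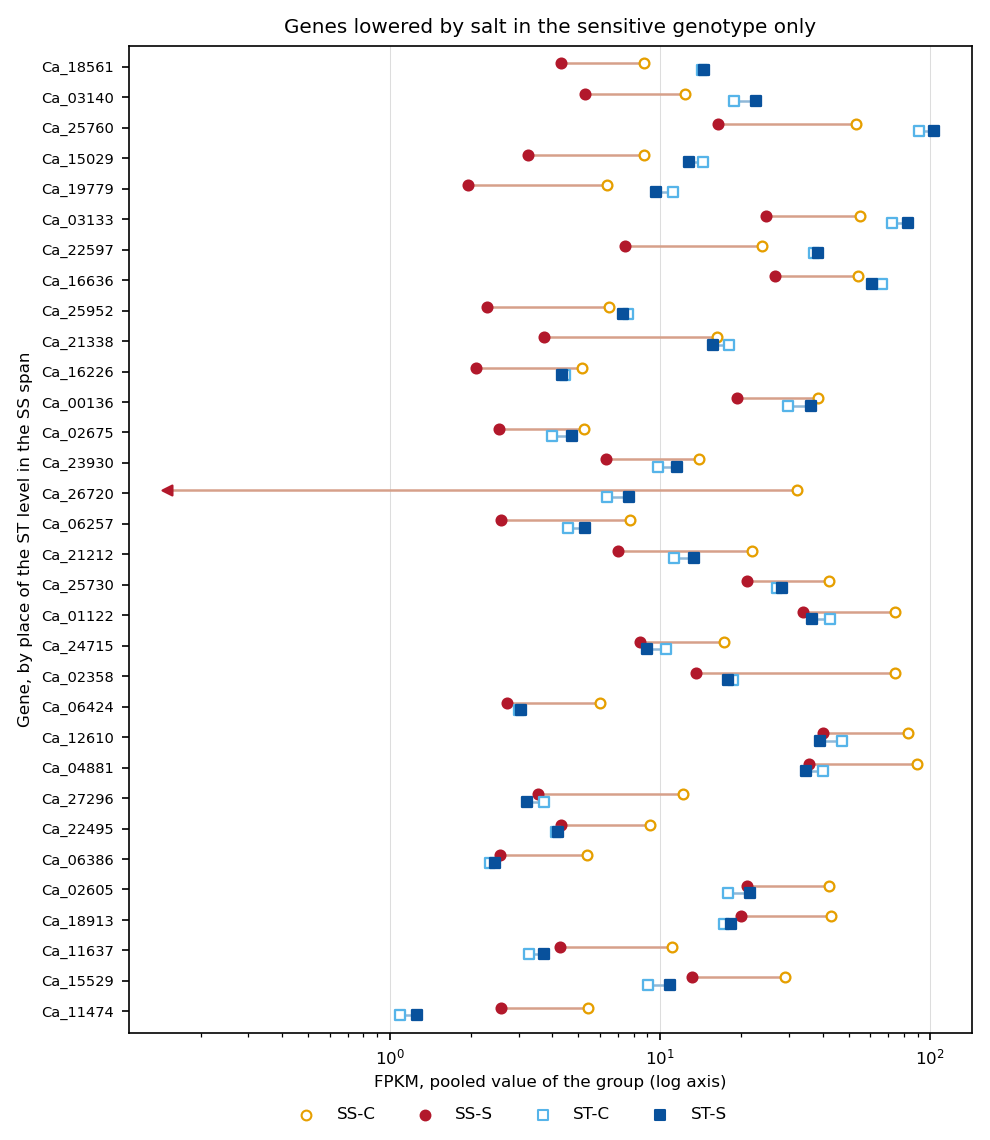
The 4 pooled FPKM values of each of the 32 lowered genes, on a log axis, with SS as circles and ST as squares, open for control and filled for stress. Genes run from those with the ST level above SS-C (top 10, from Ca_18561 to Ca_21338) to those with it below SS-S (bottom 8, from Ca_27296 to Ca_11474). The arrow marks Ca_26720, listed at 0 in SS-S.

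The same patterns can be read as gaps between the genotypes. Between control roots, 3 of the 14 raised genes with 5 FPKM or more in either group were at least 2-fold higher in ST and none was lower, where 1.6% and 1.63% of 14383 named loci open to this comparison were higher and lower in ST. Of the 32 lowered genes, none was higher and 11 were lower in ST-C. Between stressed roots, 5 of 19 raised genes were lower and none was higher in ST, and 12 of the 24 lowered genes with 5 FPKM or more were higher and none was lower. Over 14338 named loci, 3.65% were higher and 1.11% lower in ST-S than in SS-S. Each of these comparisons uses an SS column that also chose the genes, so nothing is read from the excess over these shares.

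Among the 19 raised genes the median log2 ratio of ST to SS went from 0.67 in control roots to -0.58 in stressed roots. Among the 31 lowered genes with a fold it went from -0.71 to 0.88. That the gap moved by about the SS response follows from the level ST ratio. ST-C was below SS-C at 22 lowered genes and above at 10, and ST-S was above SS-S at 23 and below at 9. A gene chosen for a high SS-C and a low SS-S is drawn toward both majorities, so these counts are a description of the choice as well.

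**Figure D4:**
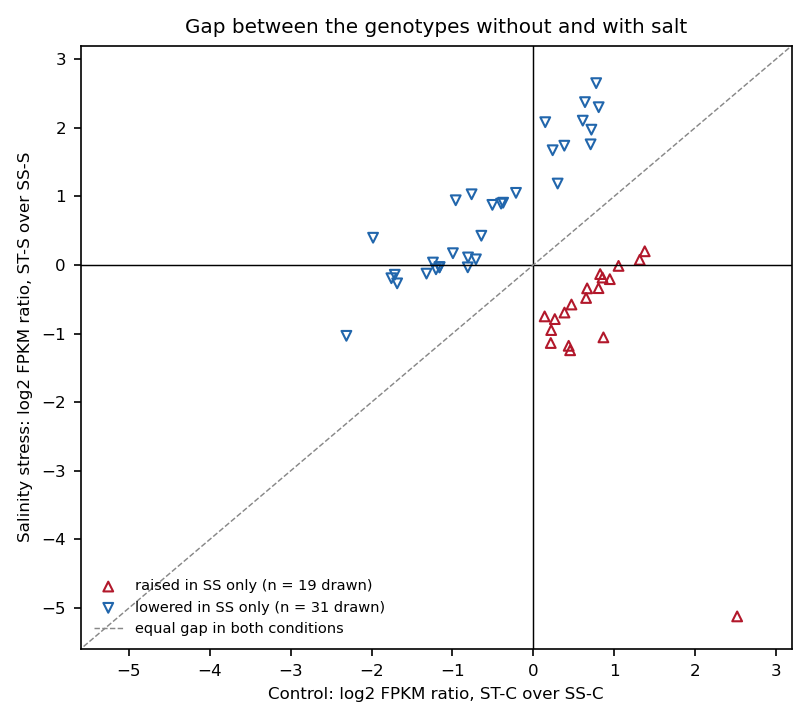
For each gene, the log2 FPKM ratio of ST to SS in control roots (x axis) and in stressed roots (y axis). Upward triangles are the 19 raised genes, all right of 0 on the x axis, and downward triangles are 31 of the 32 lowered genes, which spread from -2.31 to 0.81 (Ca_26720, listed at 0 in SS-S, is not drawn). The dashed line marks an equal gap in both conditions, and Ca_17198 is the point at the lower right.

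The 51 genes were mostly of low to middle abundance. The higher SS value was under 10 FPKM in 17 genes, 10 to 20 in 14, 20 to 50 in 12 and 50 or more in 8, and its median was 14.6 FPKM against 25.7 over all 14191 tested loci. Relative to the loci with a level ST ratio in each range, the set made up 0.951% of 1787 loci under 10 FPKM, 0.550% of 2544 loci from 10 to 20, 0.346% of 3473 loci from 20 to 50 and 0.241% of 3326 loci at 50 or more. The part of the expression level in the choice of the set was not tested. Of the raised genes only Ca_18084 was at 50 FPKM or more, whereas 7 lowered genes were: Ca_04881, Ca_12610, Ca_01122, Ca_02358, Ca_03133, Ca_16636 and Ca_25760.

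Several genes lay close to the limits that define the set. Among the raised genes the nearest inside the fold limit were Ca_01059 (2.01), Ca_17578 (2.07) and Ca_18313 (2.1), and the nearest outside were Ca_08336 (1.95), Ca_09702 (1.94) and Ca_09368 (1.94). Among the lowered genes Ca_00136, Ca_25730 and Ca_02605 were inside at 2.01 each, and Ca_16426 (1.99), Ca_23388 (1.98) and Ca_14931 (1.97) were outside. The values of the genes on both sides were thus almost the same.

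At the minimum of 5 FPKM, the raised genes Ca_11903 (5.20), Ca_18313 (5.45) and Ca_25353 (6.14) were just inside and Ca_00330 (4.75), Ca_12291 (4.50) and Ca_22967 (4.29) just outside. The lowered genes Ca_16226 (5.17), Ca_02675 (5.25) and Ca_06386 (5.4) were inside, and Ca_06796 (4.85), Ca_05685 (4.59) and Ca_12948 (4.53) were outside. At the lower edge of the ST window, the raised genes with the lowest ST ratios inside were Ca_25213 (0.801), Ca_11903 (0.834) and Ca_17198 (0.924), and Ca_03911 (0.788), Ca_16798 (0.772) and Ca_00910 (0.664) fell outside. Among the lowered genes Ca_12610 (0.832), Ca_24715 (0.847) and Ca_01122 (0.858) were inside, and Ca_16000 (0.799), Ca_12290 (0.787) and Ca_01776 (0.786) outside.

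At the upper edge, the raised genes Ca_20437 (1.24), Ca_12587 (1.18) and Ca_25353 (1.17) were inside, and Ca_15222 (1.26), Ca_06777 (1.28) and Ca_20342 (1.29) outside. The lowered genes Ca_15529, Ca_00136 and Ca_26720 were inside at 1.21 each, and Ca_09442 (1.28), Ca_02925 (1.29) and Ca_17212 (1.30) outside. The set is hence a cut through a continuous range of responses.

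Ca_09442 is described in the study as a homolog of WRKY33, a transcription factor known from Arabidopsis defence and stress responses. It had 52.4 FPKM in SS-C, 21.4 in SS-S, 62.6 in ST-C and 80.1 in ST-S. Its pattern is that of Ca_03133 or Ca_25760, with SS-S as the only low group, and it misses the set by its ST ratio of 1.28 alone.

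No gene that the text of the study names by a Ca_ number was among the 51. Its supplementary lists go by locus number and were not used. The study chose these 17 genes on the same plants, so they are no independent sample. They match 18 loci, 16 of them with 5 FPKM or more in an SS group. The set itself holds only 51 of the 14191 such loci, so nothing is read from its lack of these genes. Of the 16, 4 were lowered and none raised at least 2-fold in SS, beside 0.86% and 0.521% of the 14191. Besides Ca_09442 the lowered ones were Ca_02410, Ca_10731 and Ca_25099. Ca_02410, a homolog of a MATE efflux transporter, had 7.34 FPKM in SS-C, 3.47 in SS-S, 3.95 in ST-C and 7.43 in ST-S, so ST went the opposite way. Ca_10731, a lipoxygenase homolog (an enzyme that oxidises fatty acids), went from 30.1 to 12.8 FPKM in SS and from 11.6 to 6.73 in ST. Ca_25099, a homolog of the MATE transporter FRD3, which in Arabidopsis exports citrate for iron transport, went from 26.5 to 8.89 FPKM in SS and from 10.4 to 1.39 in ST.

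Ca_12433 and the locus shared by Ca_18458 and Ca_18464 had a level ST ratio but a smaller SS difference. The shared locus went from 124.4 to 155.1 FPKM in SS and from 115.5 to 139.6 in ST. The study describes Ca_18464 as upregulated in SS but downregulated in ST, and the ST values of the locus do not show the latter. They belong to both gene names together, so Ca_18464 alone cannot be read from them. Ca_12433 is a homolog of the Arabidopsis nuclease gene CAN2 and had 27.8 FPKM in SS-C, 18.1 in SS-S, 25.7 in ST-C and 28.9 in ST-S, a difference of 1.54-fold in SS.

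For 6 of the 51 genes the same gene name also stood at a second locus, and the second locus did not share the pattern in any of them. The name Ca_04881 is carried by XLOC_015059, described above, and by the next locus XLOC_015058, where FPKM went from 65.1 to 28.9 in SS and from 34.8 to 21.6 in ST. The SS fold of 2.25 there was similar, but the ST ratio of 0.622 was outside the window. At XLOC_021193, the second locus of Ca_16226, FPKM was higher, with 21.4 in SS-C, 9.59 in SS-S, 17.6 in ST-C and 27.4 in ST-S. SS was again lowered 2.23-fold, but the ST ratio was 1.56.

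At the second loci of the other 4 genes the SS difference itself was smaller or had the opposite sign. XLOC_007402 (Ca_21338) had 7.81 FPKM in SS-C, 5.51 in SS-S, 7.54 in ST-C and 13.2 in ST-S. XLOC_026676, which carries Ca_25950 and Ca_25952, had 33.5 FPKM in SS-C, 60.4 in SS-S, 46.4 in ST-C and 40.3 in ST-S and was thus 1.81 times higher under stress in SS, where the member locus was lower. XLOC_009429 (Ca_04290) was abundant and flat, with 87.8, 93.2, 85.9 and 76.4 FPKM in SS-C, SS-S, ST-C and ST-S, and XLOC_002853 (Ca_18313) was below 1 FPKM throughout. How reads were divided between loci of 1 gene is not given in the sources used here, so the calls for Ca_04881, Ca_16226, Ca_21338, Ca_25952, Ca_04290 and Ca_18313 belong to the locus rather than to the gene.

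The loci with the next lower and next higher number were looked up for each of the 51, which gave 102 entries, 50 of them with 5 FPKM or more in an SS group. Of the 50, 27 moved in the direction of the member and 3 did so at least 2-fold. The latter were the 2 members of the raised pair, each the neighbour of the other, and XLOC_015058, which itself carries the name Ca_04881. Of the 14191 named loci with 5 FPKM or more, 0.521% were raised and 0.86% lowered at least 2-fold in SS. The share of all loci moving either way by any amount was not counted, so nothing is read from these neighbours. The file gives no positions, so closeness of numbers is all that is stated.

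When the same thresholds were applied with the genotypes exchanged, 67 named loci were raised and 39 lowered in ST with a level SS ratio. The named loci changed 2-fold in ST were not counted as a base, so these numbers are not compared with the 19 and 32. The SS level lay inside the ST span at 40 of the 67 (59.7%) and at 23 of the 39 (59.0%). The corresponding shares in the sensitive genotype were 94.7% for the raised and 43.8% for the lowered genes. The sets share all 4 columns with each other, and no test of these shares was made.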

How the data were processed

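Root RNA was sequenced by the authors from 8 libraries as short single-end reads. After quality trimming, TopHat2 2.1.1 aligned them to the Kabuli reference of chickpea. The submitters' processing notes name Cufflinks 2.2.1 for the assembly and Cuffdiff 2.2.1 for expression. The deposited values are FPKM, 1 per locus and group, in which the authors combined 2 libraries. Cuffdiff's scaling between libraries is not given in the sources used here.

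No test was possible on pooled columns, so plain FPKM ratios were taken without a pseudocount. A pseudocount of 1 served only to place the ST level in the SS span. The deposited values give no depth: 538 loci had SS-C and SS-S values between 0 and 0.2 FPKM, and no ratio of the pair recurred at more than 3 of them, which left no read-sized step to work from. Counting error hence cannot be given.

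The members and lists were chosen with earlier results of these data known. Every member is named. Beyond the members, named genes are the 3 nearest outside each limit, the genes the text of the study names by a Ca_ number, second loci of a member's gene name and loci with adjacent numbers. The last 2 kinds were looked up after the values were seen, and further single genes among them were picked for their values. None of the gene names was found in the RefSeq table of the chickpea genome, so no sequence, position or role was taken from it. Alternatives were other folds, FPKM minimums, ST windows, pseudocounts and scalings, and other treatments of unnamed, multiply named or zero loci. The rule was run on simulated data with little noise and clear changes planted at well expressed loci. That checks the code and says nothing about genes near the limits. Python 3.11.15, pandas 2.3.3, numpy 2.4.6 and matplotlib 3.10.9 were used.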

Additional observations from a re-analysis of the deposited data

How the results depend on the processing

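No paired analysis was possible because each group has 1 pooled column, and for the same reason no library could be left out. Over 15 alternatives no median changed sign. The counts moved with the limits. The raised genes numbered 117 at 1.5-fold, 3 at 3-fold, 52 with a minimum of 1 FPKM, 138 without a minimum, 11 with an ST window from 0.9 to 1/0.9, 37 with a window from 1/1.5 to 1.5 and 32 with unnamed loci kept. The lowered genes numbered 155, 8, 84, 196, 11, 63 and 59 under the same settings and 21 with a minimum of 10 FPKM. A pseudocount of 1 kept 14 of the 19 raised and 20 of the 32 lowered genes. Median-ratio scaling of the columns kept 18 and 28 and upper-quartile scaling 18 and 27, and the 6 genes lost under either were Ca_25213, Ca_16636, Ca_18561, Ca_25730, Ca_00136 and Ca_02605. The share of raised genes in the set was between 27.3% and 50%. The ST level was nearer to SS-S than to SS-C at 47.4% of the raised genes. This share passed 50% at 1.5-fold (51.3%), with a minimum of 1 FPKM (59.6%) or 10 FPKM (53.8%), without a minimum (65.2%), with the narrow window (54.5%) and under upper-quartile scaling (52.4%), and it was 35.3% with a pseudocount of 1 and 0.0% of the 3 genes left at 3-fold. Which of the SS levels more raised genes lay near thus depended on the limits. The share was 50% of the lowered genes, with a range from 30.6% without a minimum to 57.1% with a minimum of 10 FPKM. The median log2 ratio of the ST level to SS-C was 0.71 in the raised genes, from 0.39 at 1.5-fold to 1.39 without a minimum, and -0.74 in the lowered genes, from -0.88 with a pseudocount of 1 to -0.23 without a minimum. That of the ST level to SS-S was -0.66 in the raised genes, from -1.29 at 3-fold to -0.26 without a minimum. In the lowered genes it was 0.76, from 0.43 with a minimum of 10 FPKM or the narrow window to 2.26 at 3-fold, and 1.73 without a minimum.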

Other observations

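A further 40 of the 2816 loci without a gene name met the same thresholds, 13 raised and 27 lowered in SS with a level ST ratio. How many of the 2816 had 5 FPKM or more in an SS group was not counted, so their rate is not compared with that of named loci. The higher SS value of the 40 had a median of 11.0 FPKM in the raised and 10.2 in the lowered loci. The ST level lay inside the SS span at 11 of the 13 raised and at 12 of the 27 lowered loci, and 2 lowered loci were listed at 0 in SS-S. These were XLOC_003306, with 13.7 FPKM in SS-C, 30.7 in ST-C and 24.6 in ST-S, and XLOC_015862, with 5.58 FPKM in SS-C, 10.8 in ST-C and 9.15 in ST-S. The most abundant was XLOC_012479, with 115.5 FPKM in SS-C, 53.9 in SS-S, 113.3 in ST-C and 106.9 in ST-S, so that only stressed SS roots were low. The loci named in this paragraph were picked after their values were seen.

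Consecutive locus numbers occurred among these unnamed loci as well. XLOC_030522 had 6.53 FPKM in SS-C, 1.23 in SS-S, 6.06 in ST-C and 5.65 in ST-S, whereas XLOC_030523 had 1.68 FPKM in SS-C, 6.98 in SS-S, 2.39 in ST-C and 2.95 in ST-S. One was thus lowered 5.29-fold and the next raised 4.15-fold in SS, while both were level in ST. XLOC_008775 went from 25.7 to 8.70 FPKM in SS and XLOC_008776 from 8.26 to 2.87, with ST ratios of 1.09 in both. At XLOC_005909 FPKM was 46.6 in SS-C, 19.4 in SS-S, 4.34 in ST-C and 4.73 in ST-S, the farthest below the SS span of the 40 on the log2(FPKM + 1) scale. By ratio XLOC_023496 was farther below, with 11.3 FPKM in SS-C, 3.94 in SS-S, 0.942 in ST-C and 0.889 in ST-S. What the assembly holds at these loci was not analysed here.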
